A study of Mus musculus with 6 samples.

Results

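The 10 genes described here are classical targets of ATF6 and XBP1, transcription factors of the unfolded protein response of the endoplasmic reticulum (ER). They were listed by name: Hspa5, Xbp1, Herpud1, Dnajb9, Sdf2l1, Hsp90b1, Calr, Pdia4, Creld2 and Manf. They are 10 of 46983 gene identifiers in the count tables, and all 10 passed the filter on low counts that left 16851 genes for testing.

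Cerebellum RNA was sequenced from 3 mice labelled Slc7a5-KO (Tie2-Cre with both Slc7a5 alleles floxed) and from 3 mice labelled WT (Tie2-Cre with 1 floxed and 1 unfloxed allele). All 6 mice were of the C57BL/6J background and at postnatal day 60, and the WT mice therefore carried the recombinase and 1 floxed allele too. Tie2-Cre acts in endothelial and blood lineage cells, whereas the RNA came from whole cerebellum, a mixture of neurons, glia and vessels. Slc7a5 encodes LAT1, a carrier of large neutral amino acids across the blood-brain barrier. The libraries held 13438182 to 31077690 gene reads in the group labelled Slc7a5-KO and 27672205 to 34160856 in WT, with replicate 3 of the first group the shallowest. Slc7a5 itself stood at 164.3, 59.3 and 118.0 CPM (gene counts scaled to library size with TMM factors) in the libraries labelled Slc7a5-KO, against 71.9, 66.3 and 43.2 CPM in WT, so the transcript count did not bear out the labels (log2 0.91 ± 0.42, edgeR adjusted p = 0.84). Which exons were floxed is not given in the labels, and a deletion that leaves the rest of the transcript need not lower this count. By Xist and Y-linked genes, the mice labelled Slc7a5-KO were 2 females and 1 male and the WT mice 1 female and 2 males. Each library came from its own mouse.

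When unfolded protein builds up in the ER, the membrane sensors ATF6 and IRE1 raise the chaperones and degradation factors of that compartment. ATF6 is cut to release a transcription factor, and IRE1 splices Xbp1 mRNA into the form that encodes the active factor. A further sensor, PERK, phosphorylates eIF2alpha and so raises ATF4, and the kinase GCN2 does the same when amino acids run short. ATF4 targets therefore respond to either condition, while the chaperones driven by ATF6 and XBP1 are the part of the response tied to the ER. ER stress is best known in secretory tissue, but neurons such as Purkinje cells also carry a large ER.

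The promoters of these genes are known for short elements that bind ATF6 or XBP1, and the matches found here are printed below. RefSeq promoter windows (GRCm38.p6, 250 bases before to 50 after the start) were present for 9 of the 10 members; Manf was not in the table. Both strands were searched for the ER stress response element ERSE (CCAAT, any 9 bases, then CCACG), for ERSE-II (ATTGG, any 1 base, then CCACG), for the XBP1 element core TGACGTGG and for the amino acid response element bound by ATF4 (TGATGNAA). ERSE was found in 4 of 9 members, against 0.119% of 32851 promoter windows of the same length, and ERSE-II in 1 of 9, against 0.0365%. TGACGTGG was found in 0 of 9 members, against 0.676%, and TGATGNAA in 1 of 9, against 3.97%. The stretches are written 5′ to 3′ on the gene's strand, and capitals mark the bases fixed by the motif on either strand. They lie at chr2:34772005-34772063 for Hspa5 (plus strand), chr10:86705513-86705676 for Hsp90b1 (minus), chr8:84847055-84847113 for Calr (minus), chr15:88819500-88819558 for Creld2 (plus) and chr8:94386297-94386407 for Herpud1 (plus).
Hspa5: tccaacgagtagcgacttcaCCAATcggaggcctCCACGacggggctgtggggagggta
Hsp90b1: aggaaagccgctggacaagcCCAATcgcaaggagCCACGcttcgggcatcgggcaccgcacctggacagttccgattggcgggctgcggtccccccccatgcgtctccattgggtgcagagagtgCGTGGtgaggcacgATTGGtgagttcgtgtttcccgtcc
Calr: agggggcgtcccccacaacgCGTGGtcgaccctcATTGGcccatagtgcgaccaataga
Creld2: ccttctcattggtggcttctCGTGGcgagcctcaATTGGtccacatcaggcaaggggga
Herpud1: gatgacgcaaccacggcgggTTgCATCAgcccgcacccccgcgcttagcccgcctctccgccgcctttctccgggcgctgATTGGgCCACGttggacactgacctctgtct

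Herpud1 was the only member whose window held the ATF4 element, at 112 to 105 bases before the start on the opposite strand, and it held ERSE-II at 52 to 42 bases before the start. Its element reads the same as that of Chac1, a glutathione-degrading enzyme of the ATF4 branch. The stretch printed for Chac1 lies at chr2:119351029-119351076 (plus strand). Among other genes downstream of ATF4 that were searched, Asns, Trib3 and Slc1a4 held a match. Atf5, Ddit3, Slc7a1 and Shmt2 held none. No motif matched in the windows of Xbp1, Dnajb9, Sdf2l1 and Pdia4. A match is a run of letters and not a measured binding site. By gene, TGATGNAA matched in 4.51% of 27025 genes. Whether its match bears on the level of Herpud1 was not tested.
Chac1: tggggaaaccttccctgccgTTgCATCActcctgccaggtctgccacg

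No member passed the test over all genes, and most group means lay close together. Herpud1 had the largest difference of the 10, at 1.48 times as high in the libraries labelled Slc7a5-KO as in WT. None of the 10 was called at an edgeR adjusted p under 0.05, where 0.0475% of 16851 genes were called higher and 0.00% lower. By DESeq2 0 of 10 were called, against 0.339% of all genes, and by limma-voom 0 of 10, against 0.0593%. At an unadjusted edgeR p under 0.05 there was 1 of 10, Herpud1, against 6.22% of all genes tested (3.45% higher and 2.77% lower). Log2 fold changes were above 0 for 4 members and below 0 for 6, against 50.3% above 0 among all genes. The median was -0.05, against 0.00 over all genes, and the median size regardless of sign was 0.16, against 0.20. The groups overlapped for 9 members, and 11.5% of all genes tested separated the groups without overlap (5.92% higher and 5.54% lower). For 8 of 10 members the upper bound of the 95% interval of the fold was below 1.5, the exceptions being Herpud1 and Sdf2l1. Toward lower values the intervals of Creld2 (from 0.515) and Sdf2l1 (from 0.488) reached the farthest.

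**Figure D1:**
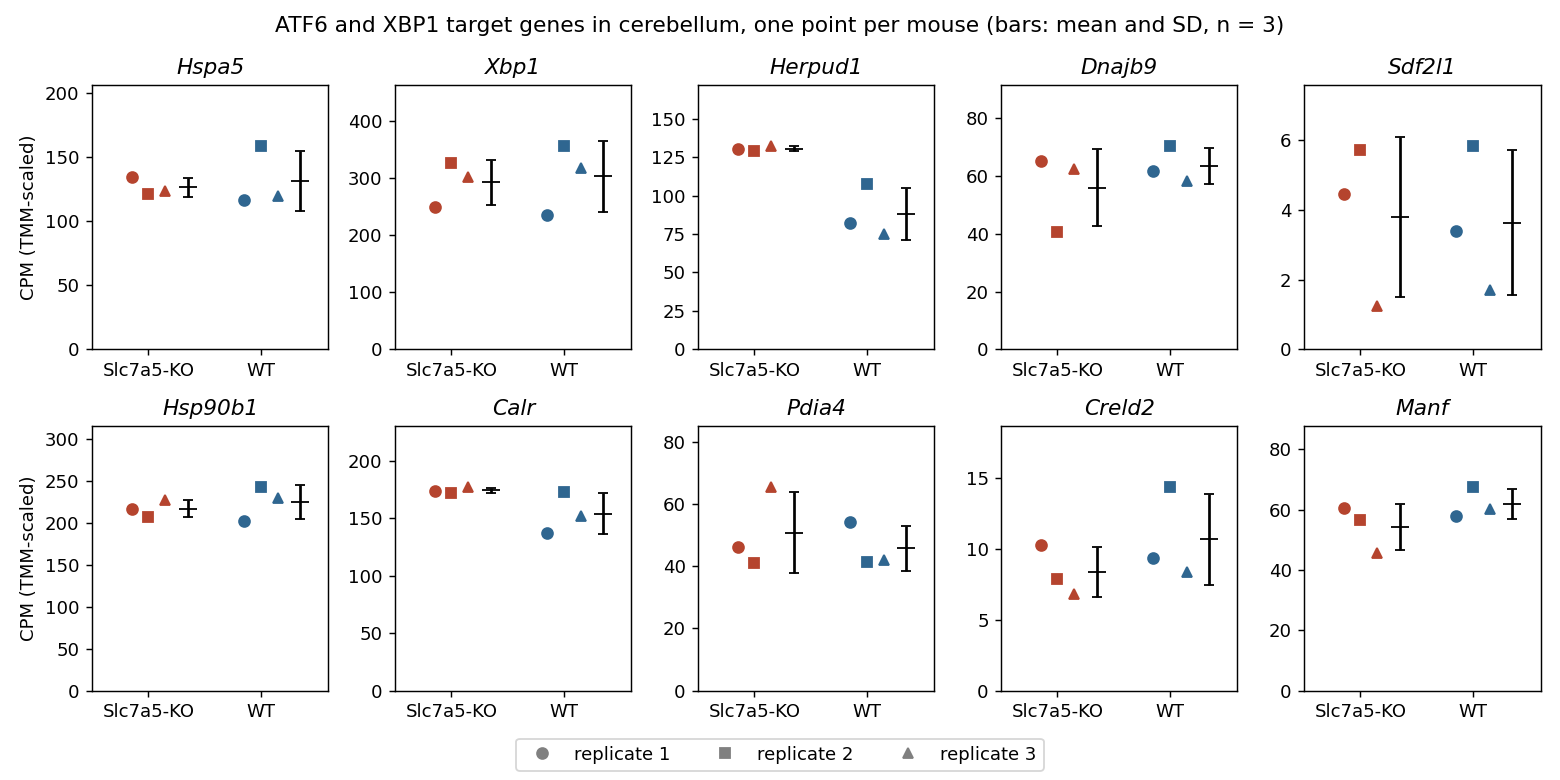
Level of each gene in CPM (vertical axis, from 0) in each of 3 mice labelled Slc7a5-KO and 3 labelled WT, with the mean and SD beside the points. Herpud1 is the gene whose groups do not overlap, at 129.3 CPM or more in the libraries labelled Slc7a5-KO and 107.2 CPM or less in WT, and WT replicate 2 (square) is the highest point in 7 of the 10 panels.

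Xbp1 is both a transducer of the response and a target of ATF6. Its mRNA was the most abundant of the 10 per length, at 90.3 ± 12.1 CPM per kilobase of exon in the libraries labelled Slc7a5-KO and 93.5 ± 19.1 in WT (SD, n = 3 each). In CPM it stood at 250.5, 327.3 and 302.6 in Slc7a5-KO replicates 1 to 3, against 235.7, 357.0 and 318.2 in WT replicates 1 to 3. Replicate 1 of each group was the lowest of its group, and the groups overlapped over nearly their whole range. The log2 fold change came to -0.05 ± 0.15 (SE, edgeR adjusted p = 0.99), with a 95% interval of -0.37 to 0.27, and leaving out Slc7a5-KO replicate 1 gave 0.05, while leaving out WT replicate 2 gave 0.09. Counts per gene do not tell the spliced from the unspliced Xbp1 mRNA, so the splicing that marks IRE1 activity was not measured.

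Hspa5 encodes BiP, the Hsp70 chaperone of the ER and the usual readout of the response. Its level was 134.6, 121.4 and 123.4 CPM in Slc7a5-KO replicates 1 to 3, against 116.5, 158.8 and 120.0 CPM in WT replicates 1 to 3. The libraries labelled Slc7a5-KO lay inside the range of WT, whose replicate 2 was apart from the other two. The log2 fold change came to -0.06 ± 0.14 (edgeR adjusted p = 0.99), and the interval of the fold ran from 0.783 to 1.18. Hsp90b1 encodes GRP94, the Hsp90 chaperone of the ER lumen, and varied the least of the 10, by 1.2-fold between the highest and the lowest mouse. Its CPM were 216.4, 206.8 and 226.3 in the libraries labelled Slc7a5-KO and 202.4, 242.1 and 228.9 in WT, and its log2 fold change came to -0.05 ± 0.12 (edgeR adjusted p = 0.99; interval of the fold 0.808 to 1.15).

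Dnajb9 encodes ERdj4, a J-domain partner of BiP and a sensitive XBP1 target. Its level was 65.1, 40.5 and 62.2 CPM among the libraries labelled Slc7a5-KO and at 61.7, 70.3 and 58.3 CPM in WT. Only Slc7a5-KO replicate 2 lay below the WT range, and the log2 fold change of -0.18 ± 0.17 (edgeR adjusted p = 0.95) was 0.0029 without that library. With a term for sex it was -0.35 ± 0.16 (unadjusted p = 0.036, edgeR adjusted p = 0.57). The same library had the fewest choroid plexus transcripts: 13 of 13 markers were tested, and their summed level was 289.3 CPM there, against 3515.1 and 6396.7 CPM in the other libraries labelled Slc7a5-KO and 3729.4 to 7944.9 CPM in WT. Whether this bears on Dnajb9 was not tested.

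Sdf2l1, a cofactor of the BiP system, was the least abundant member, with only 17 reads in the shallowest library. Its level was 4.45, 5.71 and 1.25 CPM among the libraries labelled Slc7a5-KO, against 3.39, 5.84 and 1.70 CPM in WT. It varied 4.68-fold between mice, replicate 3 was the lowest of both groups, and its log2 fold change came to 0.08 ± 0.53 (edgeR adjusted p = 1.0). The interval of the fold, 0.488 to 2.29, does not exclude a change of about 2-fold in either direction. Its sign was negative without WT replicate 3 (-0.26), Slc7a5-KO replicate 1 (-0.04) or Slc7a5-KO replicate 2 (-0.33).

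Calr encodes calreticulin, a lectin chaperone that binds calcium. Its level was 173.9, 172.4 and 177.2 CPM among the libraries labelled Slc7a5-KO, against 137.4, 173.1 and 152.0 CPM in WT. The first group was tight and at the top of the WT range, with WT replicate 2 at the same level. The log2 fold change came to 0.18 ± 0.13 (edgeR adjusted p = 0.91), with an interval of -0.09 to 0.44. Pdia4 encodes a protein disulfide isomerase, and it stood at 46.1, 40.9 and 65.4 CPM among the libraries labelled Slc7a5-KO and 54.1, 41.3 and 41.9 CPM in WT. Its log2 fold change of 0.14 ± 0.18 (edgeR adjusted p = 0.97) rested on Slc7a5-KO replicate 3, the highest of the 6, and was -0.07 without it.

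Creld2, a secreted ER protein with disulfide isomerase activity, and Manf, a neurotrophic factor held in the ER and released under stress, gave values below 0. Creld2 stood at 10.3, 7.88 and 6.83 CPM among the libraries labelled Slc7a5-KO, against 9.32, 14.3 and 8.32 CPM in WT. Its log2 fold change of -0.35 ± 0.29 (edgeR adjusted p = 0.94) was -0.07 without WT replicate 2, the highest mouse. Manf stood at 60.5, 56.6 and 45.8 CPM among the libraries labelled Slc7a5-KO and 57.8, 67.4 and 60.0 CPM in WT, and its log2 fold change came to -0.18 ± 0.15 (edgeR adjusted p = 0.93), or -0.07 when Slc7a5-KO replicate 3, the lowest mouse, was left out. Of the Manf reads, 4.84% as many lay on the opposite strand, against at most 0.827% for the other members. These opposite-strand reads were not counted.

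Herpud1 encodes Herp, a membrane protein of ER-associated degradation, and has been described as a target of ATF4 as well as of ATF6 and XBP1. On GRCm38 it lies on chromosome 8, from 94386438 to 94395377 on the plus strand. Its level was 130.2, 129.3 and 132.2 CPM among the libraries labelled Slc7a5-KO, against 81.9, 107.2 and 75.3 CPM in WT. The libraries labelled Slc7a5-KO were nearly level with each other and all above WT, where replicate 2 was again the highest. The log2 fold change was 0.57 ± 0.14, or 1.48-fold with an interval of 1.20 to 1.82, and the edgeR adjusted p was 0.29. The authors' deposited table lists Herpud1 at 0.56 (log2, before shrinkage) with an adjusted p of 0.011, and it was the 1 member of 10 past 0.05 there, where 0.900% of 14561 genes passed. DESeq2 run here gave an adjusted p of 0.065, and edgeR without the filter on low counts gave 0.040. Leaving out 1 library moved the log2 fold change from 0.46 (without WT replicate 3) to 0.73 (without WT replicate 2).

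**Figure D2:**
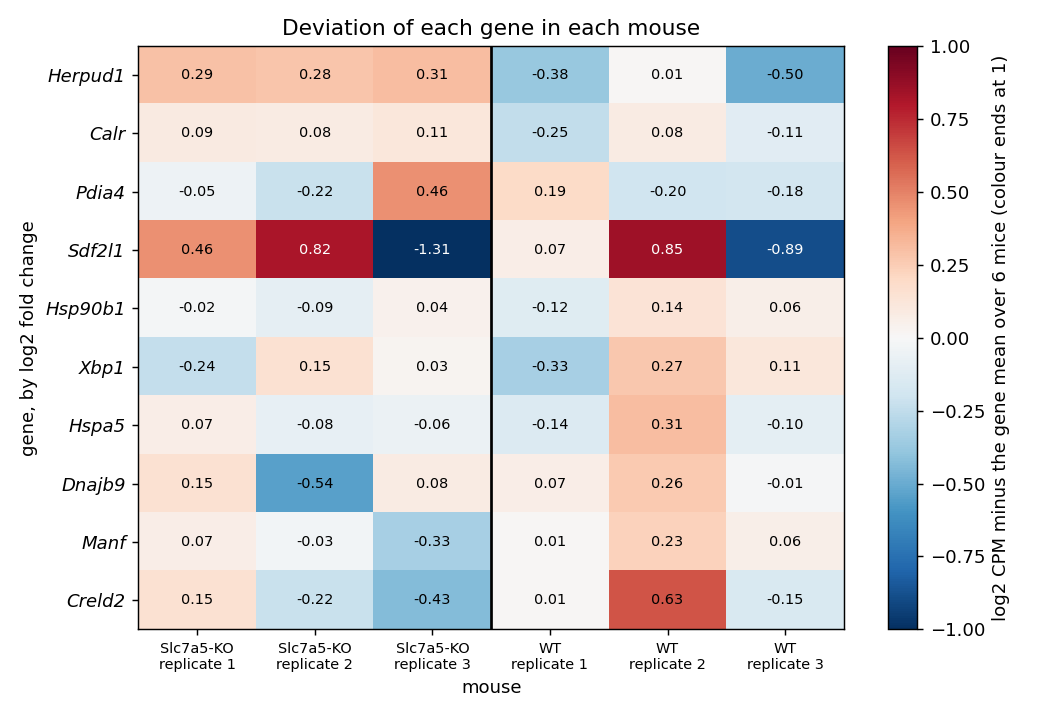
Log2 CPM of each gene (rows) in each mouse (columns) minus that gene's mean over the 6 mice, with the value printed in each cell. The Herpud1 row is above 0 in the 3 libraries labelled Slc7a5-KO (0.28 to 0.31) and at or below 0.01 in WT, whereas WT replicate 2 is above 0 for every gene except Pdia4 (-0.20).

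Herpud1 was also set against the other 9 members within each mouse, a comparison chosen after the values were seen. Its log2 CPM minus the mean log2 CPM of the other 9 was 1.11, 1.19 and 1.36 in Slc7a5-KO replicates 1 to 3, against 0.57, 0.62 and 0.53 in WT replicates 1 to 3. WT replicate 2, which was high in most members, no longer stood apart. The difference between the groups was 0.65, with 1.22 ± 0.13 in the libraries labelled Slc7a5-KO and 0.57 ± 0.05 in WT (SD, n = 3 each). An exact 2-sided permutation of the group labels gave p = 0.1, the smallest value possible with 3 mice per group, so it cannot decide. Herpud1 was also picked for its separation of the groups, so this p is no support.

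Levels between genes were compared per kilobase of annotated exon. In WT the order was Xbp1 (93.5 CPM per kilobase), Hsp90b1 (55.7), Calr (53.5), Herpud1 (37.8), Hspa5 (31.2), Dnajb9 (24.9), Pdia4 (19.1), Manf (17.5), Creld2 (7.80) and Sdf2l1 (3.29). In the libraries labelled Slc7a5-KO, Herpud1 averaged 56.0 CPM per kilobase and lay between Calr (60.6) and Hsp90b1 (53.7). The ranges of the 6 mice did not overlap between Xbp1 and Hsp90b1 or between Manf and Creld2, and they overlapped between all other neighbours in the WT order. Within each of the 6 mice, Calr was above Herpud1, Herpud1 above Hspa5, Hspa5 above Dnajb9 and Creld2 above Sdf2l1. Dnajb9 was above Pdia4 in 4 mice, Pdia4 above Manf in 5 and Hsp90b1 above Calr in 2. By mean CPM, 8 of the 10 were above the 70th percentile of the genes tested.

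The mice differed among themselves along the list. WT replicate 2 was the highest of the 6 in 7 members, and the mean deviation of the 9 members other than Herpud1 was 0.28 there on the log2 scale, against 0.08, -0.02 and -0.16 in Slc7a5-KO replicates 1 to 3 and -0.05 and -0.13 in WT replicates 1 and 3. Without WT replicate 2 the median log2 fold change of the 10 was 0.08 with 7 above 0, and Hspa5 (0.10), Xbp1 (0.09) and Hsp90b1 (0.01) changed sign, with none called. Markers of cerebellar neurons moved with this mouse. The 10 Purkinje cell markers, all tested, had a mean deviation of 0.40 in WT replicate 2 and 0.08 and 0.11 in WT replicates 1 and 3, against 0.04, -0.43 and -0.20 in Slc7a5-KO replicates 1 to 3. Their summed level was 4167.6 to 6077.4 CPM among the libraries labelled Slc7a5-KO and 5950.0 to 7221.1 CPM in WT. All 10 were below 0 with a median log2 fold change of -0.47, and 0 were called by edgeR or limma-voom. DESeq2 called 2 of the 10, against 0.339% of all genes in either direction. At an unadjusted edgeR p under 0.05, 6 were lower, against 2.77% of all genes tested. Of the 10, 4 passed as lower in the authors' deposited comparison, where 0.900% of 14561 genes passed in either direction. The mean deviations of these markers did not overlap between the groups. By gene, 4 of the 10 separated the groups without overlap toward lower values, against 5.54% of all genes tested. The 2 markers with the smallest p were Rgs8 (-0.57 ± 0.13, edgeR adjusted p = 0.22) and Icmt (-0.48 ± 0.12, edgeR adjusted p = 0.29). Granule neuron markers had their highest mean deviation there as well, at 0.36, against 0.30 in Slc7a5-KO replicate 1, with 9 of 9 tested and summed levels of 3336.9 to 5246.8 CPM among the libraries labelled Slc7a5-KO and 3986.2 to 5853.1 CPM in WT. The part of these markers in the members' levels was not tested, and in whole tissue fewer cells of a type cannot be told from less RNA per cell. Plasma and B cell markers, from cells rich in XBP1, had 3 of 7 members past the filter and a summed level of 11.9 to 32.5 CPM among the libraries labelled Slc7a5-KO and a lowest value of 16.6 CPM in WT.

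The genes whose pattern over the 6 mice was nearest to that of Hspa5 were Emp2, Mau2, Pikfyve, Id4 and Astn2. Likeness was the root mean square difference of centred log2 CPM over the 6 mice, and it ran from 0.0315 for Emp2 to 0.0349 for Astn2 among 9875 genes with a mean of at least 10 CPM. The nearest member was Hsp90b1 at 0.109, with 301 genes nearer, and the farthest was Sdf2l1 at 0.764. Herpud1 was at 0.322.

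The sensors of the response did not pass the test. Ern1, which encodes IRE1, stood at 18.6 ± 3.91 CPM among the libraries labelled Slc7a5-KO and 12.4 ± 5.21 CPM in WT (log2 0.58 ± 0.27, edgeR adjusted p = 0.80). This value was 0.97 without WT replicate 1 and 0.36 without WT replicate 2, with edgeR adjusted p of 0.46 and 1.0. Eif2ak3, which encodes PERK, had a log2 fold change of 0.18 ± 0.19, Atf6 of 0.14 ± 0.14 and Atf6b of 0.10 ± 0.14. Among the 10 genes for sensors, processing proteases and the ligase of Xbp1 splicing, 0 were called by edgeR, DESeq2 or limma-voom, and 1 (Ern1) had an unadjusted edgeR p under 0.05. Mbtps2, a protease that cleaves ATF6, had -0.20 ± 0.17.

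Further ER folding enzymes and degradation factors gave a median close to that of all genes. Of 24 other folding enzymes and chaperones, 15 were above 0 and 9 below, with a median log2 fold change of 0.05, 0 called by edgeR, DESeq2 or limma-voom and 0 at an unadjusted edgeR p under 0.05. Those with the smallest p were Ero1l, an oxidase that recharges disulfide isomerases (-0.41 ± 0.21, edgeR adjusted p = 0.82), and Dnajc10, a disulfide reductase (-0.25 ± 0.13, edgeR adjusted p = 0.84). Of 22 genes of ER-associated degradation, the pathway of Herpud1, 10 were above 0 and 12 below, with a median of -0.01. Toward lower values, opposite to Herpud1, 6 of the 22 separated the groups without overlap, against 5.54% of all genes tested. Toward higher values 1 did, against 5.92%. What this lean reflects was not tested. None of the 22 was called by edgeR, DESeq2 or limma-voom, and 2 had an unadjusted edgeR p under 0.05, both lower. These were Erlec1, an ER lectin, at 29.5 ± 4.20 CPM among the libraries labelled Slc7a5-KO and 42.8 ± 4.15 CPM in WT (-0.53 ± 0.17, edgeR adjusted p = 0.59), and Selenok (-0.34 ± 0.16, edgeR adjusted p = 0.78). Herpud2, the paralog of Herpud1, had -0.04 ± 0.14.

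Relatives of the members that act outside the list had a median near 0, in a range of -1.24 to 0.45. Among them, Canx, Pdia3, Pdia6, Dnajb11 and Herpud2 were already counted in the lists above. Of 15 such genes 7 were above 0 and 8 below, with a median of -0.01 and 0 called by edgeR, DESeq2 or limma-voom, and 1 had an unadjusted edgeR p under 0.05. That was Creld1, the paralog of Creld2, at 47.2 ± 6.55 CPM among the libraries labelled Slc7a5-KO and 34.6 ± 3.31 CPM in WT (0.45 ± 0.16, edgeR adjusted p = 0.67). The cytosolic Hsp70 gene Hspa8 had 0.18 ± 0.13, the cytosolic Hsp90 gene Hsp90ab1 0.19 ± 0.13, and Canx, which encodes the membrane lectin calnexin, 0.06 ± 0.12. Sdf2 had -0.31 ± 0.19. Cdnf, the paralog of Manf, was low throughout, at 0.955 ± 0.573 CPM among the libraries labelled Slc7a5-KO and 2.27 ± 0.755 CPM in WT (-1.24 ± 0.71, edgeR adjusted p = 0.85).

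In the same fit the genes downstream of ATF4 lay higher than the ATF6 and XBP1 targets. All 16 genes of the ATF4 and CHOP branch, which PERK and GCN2 share, were above 0, against 50.3% of all genes tested. Their median log2 fold change was 0.61, in a range of 0.06 to 1.70. Of these, 2 were called higher and none lower by edgeR, Chac1 (1.38 ± 0.20, edgeR adjusted p = 0.0055) and Atf5 (1.70 ± 0.17, edgeR adjusted p = 0.00017), while DESeq2 called 3 and limma-voom 2. Over all genes the shares called were 0.0475% by edgeR, 0.339% by DESeq2 and 0.0593% by limma-voom. Among 25 genes of amino acid synthesis, transport and tRNA charging, all above 0, the median was 0.58, and 3 were called higher by edgeR, 11 by DESeq2 and 5 by limma-voom. The 3 were the transporters Slc7a1 (1.07 ± 0.15) and Slc1a4 (1.02 ± 0.13) and the mitochondrial serine enzyme Shmt2 (0.96 ± 0.14). Without WT replicate 3 the edgeR adjusted p of Chac1 was 0.068 and that of Shmt2 was 0.14, and without WT replicate 1 that of Shmt2 was 0.068. The value of Herpud1 (0.57, interval 0.27 to 0.87) lay near these medians and beside that of Ddit3, which encodes CHOP (0.57 ± 0.19, edgeR adjusted p = 0.59). It lay equally beside those of Ern1 (0.58 ± 0.27) and the N-glycosylation gene Dpagt1 (0.57 ± 0.19), whose lists had medians of 0.12 and 0.05. These genes were set beside Herpud1 after their values were seen, and what the closeness reflects was not tested. The difference between the ATF4 lists and the list of members was not tested. Many of their genes had been seen to be higher in these libraries before the lists were drawn up, so their counts are no independent evidence of a direction.

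**Figure D3:**
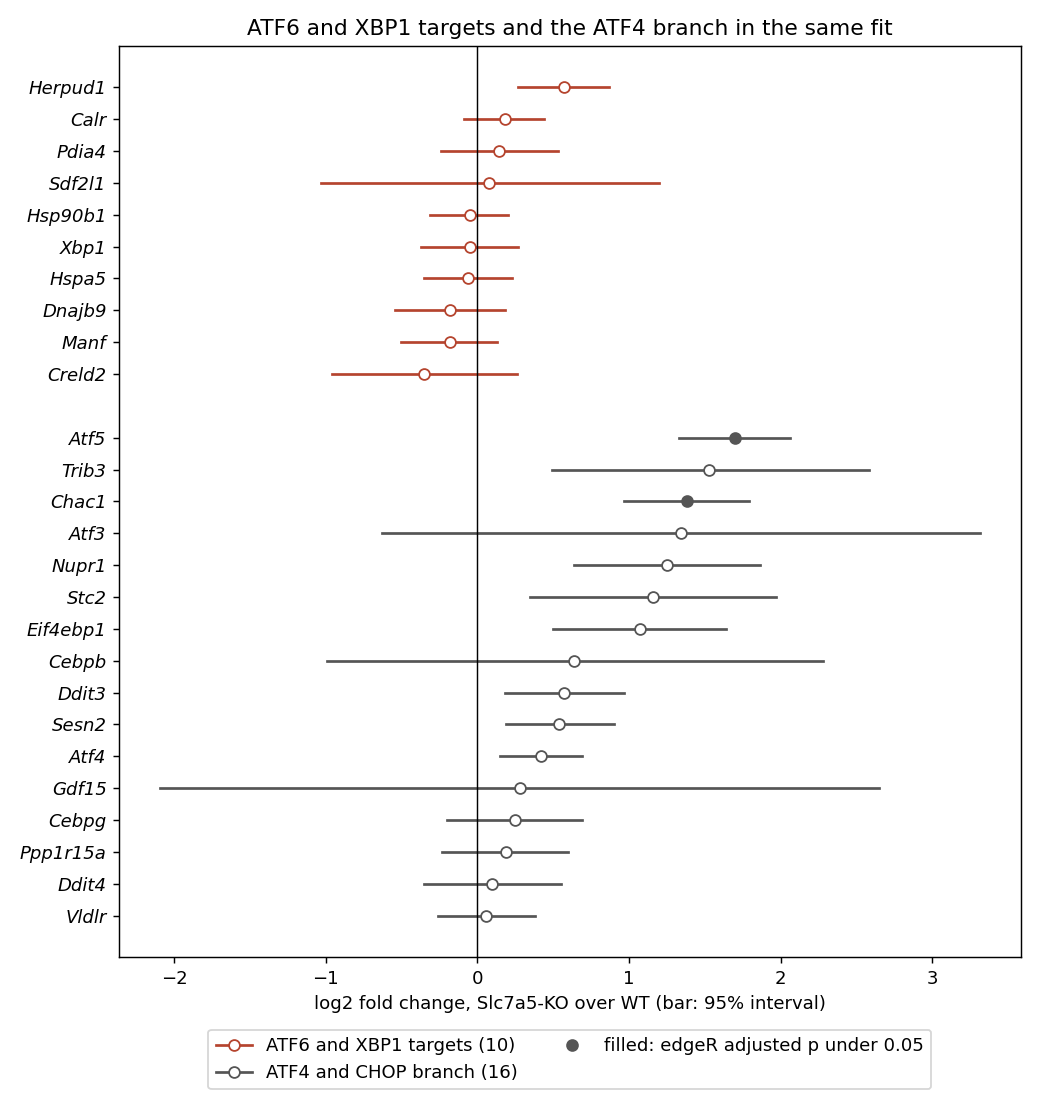
Log2 fold change of the libraries labelled Slc7a5-KO over WT (horizontal axis) with its 95% interval for the 10 ATF6 and XBP1 targets (top) and the 16 genes of the ATF4 and CHOP branch (bottom). Filled points passed an edgeR adjusted p of 0.05, which Atf5 and Chac1 did, and among the 10 targets the interval of Herpud1 (0.27 to 0.87) is the one that leaves out 0.

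By mouse, the mean deviation of the ATF4 and CHOP branch was 0.65, 0.29 and 0.20 in Slc7a5-KO replicates 1 to 3, against -0.34, -0.31 and -0.49 in WT replicates 1 to 3. The other 9 members overlapped between the groups, as given above. The mean of the microglia markers also separated the groups, though not every marker did. Their mean deviation was 0.08, 0.25 and 0.25 in Slc7a5-KO replicates 1 to 3, against -0.03, -0.05 and -0.50 in WT replicates 1 to 3, and their summed level was 188.2 to 219.1 CPM among the libraries labelled Slc7a5-KO and 130.7 to 177.9 CPM in WT. Of the 7 markers, all tested, 6 were above 0, with 0 called by edgeR or limma-voom, 1 by DESeq2 and 3 at an unadjusted edgeR p under 0.05. The lysosomal marker Cd68 had 1.26 ± 0.29 (edgeR adjusted p = 0.21) and the receptor Cx3cr1 0.52 ± 0.17 (edgeR adjusted p = 0.59). Csf1r had 0.46 ± 0.19 and C1qa 0.30 ± 0.20, whereas P2ry12 (-0.02 ± 0.18), Tmem119 (0.02 ± 0.28) and Aif1 (0.10 ± 0.52) were near 0. Among 8 markers of astrocytes and Bergmann glia, 2 were above 0 and 6 below, and their mean deviations overlapped between the groups. Gfap had 0.55 ± 0.14 (edgeR adjusted p = 0.31) and S100b -0.38 ± 0.13 (edgeR adjusted p = 0.64). The authors' deposited table lists adjusted p of 0.02 for Gfap and 0.088 for S100b. Mean deviations also overlapped for the markers of oligodendrocytes and of fibroblasts and meninges. Those of endothelium, among the cells in which Tie2-Cre acts, only met at 0.06. They were 0.08, 0.06 and 0.17 in Slc7a5-KO replicates 1 to 3, against 0.06, -0.29 and -0.07 in WT replicates 1 to 3. Of 9 endothelial markers, 6 were above 0 and 3 below, with a median of 0.18. None of these 3 lists had a marker called by edgeR, DESeq2 or limma-voom or at an unadjusted edgeR p under 0.05. The part of microglia, glia and endothelium in the levels of Herpud1 and the ATF4 groups was not tested.

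**Figure D4:**
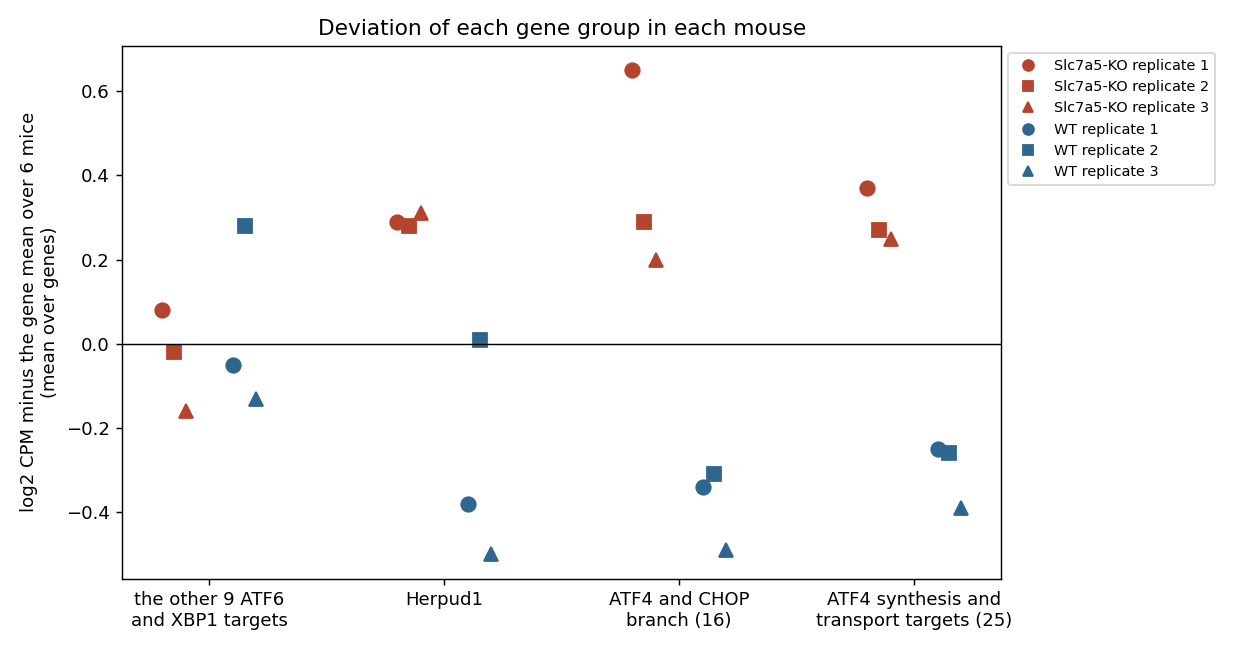
Mean deviation on the log2 scale (vertical axis) of 4 gene groups in each mouse, where each gene is centred on its mean over the 6 mice. The points of the other 9 ATF6 and XBP1 targets overlap between the libraries labelled Slc7a5-KO (-0.16 to 0.08) and WT (-0.13 to 0.28), and the points of Herpud1 and of both ATF4 groups do not.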

How the data were processed

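The deposited values are raw counts of reads per gene, 1 table per mouse, and per the submitters' processing notes STAR 2.5.4 and GRCm38 (mm10) were used. The reverse-strand count was used (94.82% to 95.77% of reads of both strand columns), and reads of no gene or several genes (19.5% to 22.18%) were left out. Multimapping reads are listed as 0, and the annotation release was not stated. The authors' deposited comparison (DESeq2 1.10.1, R 3.2.4 in the notes) gives, per the file headers, a mean normalised count as a signal, log2 fold changes, a Wald score and p-values. Symbols matched 46488 of 46983 identifiers, and loci and exon lengths come from GENCODE M21 on GRCm38.

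Low genes were removed by filterByExpr (count of at least 10, total of at least 15). The robust quasi-likelihood test of edgeR 4.0.16 was then run 2-sided with TMM factors under R 4.3.3, and p-values were adjusted by Benjamini-Hochberg over 16851 genes (threshold 0.05). Log2 CPM used a prior count of 2. Alternatives were RLE factors, library size alone, no filter, DESeq2 1.42.0, limma-voom 3.58.1, both strands together, a replicate block, a term for sex (read from Xist and Y-linked genes) and leaving out each library. Counts carry no molecular identifiers. The edgeR step was tested on simulated data. The members and lists were chosen with earlier results of these data known. The text names all members, the sensors, paralogs, and in each pathway list the genes called or else the 2 with the smallest p. Chac1, Ddit3, Ern1 and Dpagt1 were also chosen for comparison after their values were seen.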

Additional observations from a re-analysis of the deposited data

How the results depend on the processing

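No member was called under any alternative except Herpud1, which passed without the filter on low counts (log2 0.56, edgeR adjusted p = 0.040) and otherwise had adjusted p of 0.065 to 1.0. The number of genes called over all genes was 8, and it was 71 without the filter, 46 by DESeq2, 16 with a sex term (which also gave -0.13 for Hspa5 and -0.35 for Dnajb9) and 3 to 20 when 1 library was left out. When 1 library was left out, log2 fold changes ran from -0.14 to 0.10 for Hspa5, -0.20 to 0.09 for Xbp1, -0.31 to 0.0029 for Dnajb9, -0.33 to 0.60 for Sdf2l1, -0.12 to 0.01 for Hsp90b1 and -0.07 to 0.28 for Pdia4, so their directions are not settled. Calr, Creld2 and Manf kept their sign, but their 95% intervals over all 6 mice held 0, so their directions are not settled either. With 1 library left out, the list medians ran from -0.18 to -0.05 for the translocon and from -0.05 to 0.07 for COPII transport. The median of the members ran from -0.13 to 0.08 and that of the ATF4 and CHOP branch from 0.47 to 0.77. With the replicate block, Sdf2l1 had -0.01 and 6 genes were called in all. Same-numbered mice did not deviate together (correlations of -0.038, -0.059 and -0.027), so the numbers do not pair them. Causes of these differences were not tested. The precision of each member is that of its interval, which was widest for Sdf2l1 and Creld2, the members with the fewest reads.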

Other observations

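Other parts of the secretory pathway were described by lists drawn up with the members. Of 21 N-glycosylation genes, 12 were above 0 and 9 below, with a median log2 fold change of 0.05 in the libraries labelled Slc7a5-KO over WT. None was called by edgeR, DESeq2 or limma-voom, and 3 had an unadjusted edgeR p under 0.05, all higher. The 2 with the smallest p were Dpagt1, the enzyme that starts the lipid-linked sugar, at 32.9 ± 3.04 CPM in the libraries labelled Slc7a5-KO and 22.1 ± 3.84 CPM in WT (0.57 ± 0.19, edgeR adjusted p = 0.59), and Alg3, a mannosyltransferase, at 15.6 ± 5.07 CPM in the libraries labelled Slc7a5-KO and 8.88 ± 0.999 CPM in WT (0.81 ± 0.27, edgeR adjusted p = 0.59). Of 23 genes of the translocon and signal peptide processing, 17 were below 0 and 6 above, with a median of -0.12, 0 called by edgeR, DESeq2 or limma-voom and 1 at an unadjusted edgeR p under 0.05. That was Sec63, the translocon's J-domain protein, at 43.0 ± 4.18 CPM in the libraries labelled Slc7a5-KO and 54.4 ± 2.95 CPM in WT (-0.34 ± 0.15, edgeR adjusted p = 0.76), and Sec62 had -0.24 ± 0.13. Of 21 genes of COPII transport and KDEL retrieval, the median was 0.03 with 0 called by the same 3 tools and 2 at an unadjusted edgeR p under 0.05, Sar1b (-0.42 ± 0.16, edgeR adjusted p = 0.69) and Sec31a (0.34 ± 0.14, edgeR adjusted p = 0.76). The 7 mRNAs known to be cleaved by IRE1 had a median of 0.20 (0.05 without WT replicate 3) with 0 called by the same 3 tools and 0 at an unadjusted edgeR p under 0.05, among them Sparc (0.24 ± 0.15) and Pdgfrb (0.43 ± 0.21).

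Genes outside the member list that carry the same promoter elements were taken from the RefSeq windows as well. Of 37 genes with ERSE, 14 non-members were tested, 9 of them above 0, with a median of 0.07, 0 called by edgeR and 1 at an unadjusted edgeR p under 0.05. For ERSE-II, 7 non-members were tested, 4 of them above 0, with a median of 0.17. For TGACGTGG, 125 were tested, 66 of them above 0, with a median of 0.03. Both sets had 0 called by edgeR. Over all genes tested 50.3% were above 0. Of 1219 genes with TGATGNAA, 334 non-members were tested, 191 of them above 0, with a median of 0.04. At an unadjusted edgeR p under 0.05, 22 of the 334 were higher and 7 lower, against 3.45% and 2.77% of all genes tested. Among the 334, 2 were called higher, Chac1 and Slc1a4, or 0.599%, against 0.0475% of all genes tested. Both were known to be called before the search was made. The element was held by 5 of 15 genes of the ATF4 and CHOP branch and by 8 of 18 of the synthesis and transport list that were in the table.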
